A study of Homo sapiens with 12 samples.

Results

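The 8 genes described here set and read the cholesterol content of a cell. They were chosen by name from this pathway, out of 35579 genes to which the deposited transcripts could be summed. SREBF1 and SREBF2 encode the sterol regulatory element binding proteins (SREBPs), and SCAP, INSIG1 and INSIG2 control their processing. STARD4 carries sterol between membranes, MYLIP lowers cholesterol uptake and ABCA1 exports cholesterol. The genes were measured in WM-266-4, a human melanoma cell line, as 12 RNA sequencing libraries from 3 experiments. Every cell carried a stable lentiviral knock-down of TYRO3, a receptor tyrosine kinase, and was grown with 1 μg/ml puromycin and 10% fetal calf serum. The cells were transfected with a pEZY-myc-his plasmid for GFP, for wild-type TYRO3 (WT), for TYRO3 ΔGS (I449A) or for TYRO3 ΔADAM (P408A/L409P/G419P), and were starved of serum overnight. Each group had 3 libraries, 1 from each experiment.

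The study describes ΔGS as resistant to cleavage by the protease γ-secretase and ΔADAM as resistant to cleavage by ADAM proteases, which need not mean that neither is cut at all. The labels name GFP as the control plasmid, while the study writes of a control vector and, for its functional assays, of one without an insert, so the control called GFP here may be an empty plasmid. The comparison of the TYRO3 groups with GFP asks what a receptor expressed from a plasmid does to these genes. No library used here came from cells without the knock-down, so the native level of TYRO3 is not known. The comparison of WT with both variants asks what depends on cleavage. GFP or TYRO3 was added by transfection, and the share of cells that took up the plasmid is not given in the sources used here. In such bulk samples, fewer cells that transcribe a gene and less RNA per cell cannot be told apart. The labels number the experiments but do not say that the libraries came from separate cultures, and the p-values measure the spread between these libraries only.

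Cholesterol synthesis and uptake are under feedback control. When sterols are low, SCAP escorts the SREBPs from the endoplasmic reticulum to the Golgi, where they are cut, and the released part enters the nucleus and switches on genes of cholesterol and fatty acid synthesis. When sterols are high, INSIG1 and INSIG2 hold SCAP back. INSIG1, STARD4 and SREBF2 are themselves SREBP targets, so their mRNAs follow SREBP activity. The liver X receptors (LXRs) work in the other direction: oxysterols activate them, and they switch on genes that include ABCA1 and MYLIP. MYLIP is an E3 ubiquitin ligase that marks the low-density lipoprotein receptor for degradation.

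In GENCODE 29 (GRCh38), SREBF1 is on chromosome 17 from 17810399 to 17837002 (minus strand) and SREBF2 on chromosome 22 from 41833079 to 41907308 (plus). SCAP is on chromosome 3 from 47413694 to 47477126 (minus strand), INSIG1 on chromosome 7 from 155297776 to 155310235 (plus) and INSIG2 on chromosome 2 from 118088452 to 118110997 (plus). STARD4 is on chromosome 5 from 111496033 to 111512590 (minus), MYLIP on chromosome 6 from 16129125 to 16148248 (plus) and ABCA1 on chromosome 9 from 104781002 to 104928237 (minus). All 8 are protein-coding. SREBF1 overlaps RAI1 on the opposite strand, which had a mean of 45.1 TPM over the 12 libraries (TPM, a level scaled to transcript length and library size). Whether the counting used the strand of the reads is not given in the sources used here, so reads in that overlap may belong to either gene.

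The promoters of INSIG1, STARD4, SREBF2 and ABCA1 are printed because these 4 genes were called against GFP in both variants in the model with a term for each experiment (below). The sequences are the 250 bases before the RefSeq start (GRCh38.p14), read in the direction of the gene. Capitals mark the SRE core TCACNCCAC, the E-box CACGTG and the CCAAT box CCAAT, each searched on both strands.
SREBF2, chr22:41832855-41833104, plus strand: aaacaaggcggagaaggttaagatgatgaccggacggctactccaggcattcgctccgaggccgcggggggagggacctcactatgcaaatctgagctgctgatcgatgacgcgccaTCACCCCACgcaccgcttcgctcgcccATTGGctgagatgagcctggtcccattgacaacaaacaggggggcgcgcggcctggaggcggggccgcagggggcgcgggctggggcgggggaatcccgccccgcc
INSIG1, chr7:155297628-155297877, plus strand: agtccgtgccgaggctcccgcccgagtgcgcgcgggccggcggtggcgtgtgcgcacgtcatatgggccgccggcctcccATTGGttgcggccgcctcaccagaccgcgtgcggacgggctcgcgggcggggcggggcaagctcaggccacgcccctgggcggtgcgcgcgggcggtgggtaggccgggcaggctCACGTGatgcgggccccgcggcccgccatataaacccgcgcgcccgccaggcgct
STARD4, chr5:111512536-111512785, minus strand: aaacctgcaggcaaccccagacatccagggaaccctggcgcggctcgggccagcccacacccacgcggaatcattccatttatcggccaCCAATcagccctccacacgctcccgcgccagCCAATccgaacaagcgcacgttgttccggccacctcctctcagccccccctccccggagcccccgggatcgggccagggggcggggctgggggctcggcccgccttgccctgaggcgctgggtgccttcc
ABCA1, chr9:104928156-104928405, minus strand: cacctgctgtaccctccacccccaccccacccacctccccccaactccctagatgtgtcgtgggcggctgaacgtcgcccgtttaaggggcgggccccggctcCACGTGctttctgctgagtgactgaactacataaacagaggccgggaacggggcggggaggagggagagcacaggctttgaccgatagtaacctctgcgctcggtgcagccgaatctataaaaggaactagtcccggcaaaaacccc

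The SRE core, the letters of a site that SREBPs bind, was found in 1 of the 9 promoter windows of the 8 genes. Other forms of the site were not searched, so the search does not show that the other windows lack one. INSIG2 has 2 windows, and each window held 250 bases before and 50 bases after the start. The first base of the match lay 133 bases before the start of SREBF2, with a CCAAT box on the reverse strand at 106 bases. The same core was in 1.13% of the 35116 promoters searched, and the CCAAT box in 34.6%. STARD4 had CCAAT boxes at 161 and 130 bases before its start, INSIG1 had a reversed box at 170 bases and MYLIP had reversed boxes at 109 and 68 bases. The E-box was present in INSIG1 at 55 bases, in SCAP at 58 bases and in ABCA1 at 147 bases before the start, against 7.26% of all promoters. Every window had at least 1 GC box (GGGCGG), which stood in 45% of all promoters, and no match of a motif overlapped one of another motif in these windows. The pattern searched for the DR4 element of LXRs, a direct repeat with a spacer of 4 bases, was in 0.0854% of all promoters. It matched in none of the 9 windows. The ABCA1 promoter printed above holds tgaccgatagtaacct, which on the other strand reads aggtta and cggtca with 4 bases between. That stretch does not match the pattern and was not counted. The search therefore does not show that ABCA1 or another member lacks a DR4 element. These matches describe letters in the windows and say nothing of binding.

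The labels were checked on TYRO3 itself. TYRO3 stood at 47.3 to 56.6 CPM in the GFP libraries (CPM, counts scaled to library size) and at 1181 to 3694 CPM in the TYRO3 libraries. It was highest in experiment 1, with 3064 CPM in WT, 3694 in ΔGS and 3284 in ΔADAM, and lay between 1181 and 1791 CPM in experiments 2 and 3. The totals of estimated counts ran from 4008293 to 38184838 with a median of 23302001, and the GFP library of experiment 1 was the shallowest, the next lowest total being 18365999. Mitochondrial genes took 8.46% of the counts in that library, 6.41% to 7.25% in the TYRO3 libraries of experiment 1 and 4.39% to 6.17% elsewhere. Of 8 melanocyte lineage markers, 7 exceeded 1 TPM in every library, and TYRP1 ranged from 0.251 to 3.81 TPM. The 6 fibroblast markers summed to 73.3 to 95.04 TPM in GFP and 47.0 to 75.0 TPM in the TYRO3 libraries, most of it LUM, with COL1A2 and COL3A1 below 1 TPM in every library. The 6 epithelial markers summed to 131 to 175 TPM in GFP and 157 to 247 TPM in the TYRO3 libraries. Most of it was KRT18, at 112 to 222 TPM, followed by KRT8 at 13.4 to 28.7 TPM, with KRT5 at 0 in all 12. The part of these values in the results was not tested.

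TPM values are per transcript length and allow levels of different genes to be compared. In the GFP libraries INSIG1 was highest with 283 TPM ± 46.5 (SD, n = 3), followed by SREBF1 with 211 TPM ± 30.4 (SD, n = 3). SREBF2 had 83.8 TPM ± 11.5 (SD, n = 3) and STARD4 61.3 TPM ± 11.2 (SD, n = 3), and the ranges of these neighbours overlapped. SCAP had 40.6 TPM ± 4.83 (SD, n = 3), INSIG2 24.2 TPM ± 3.99 (SD, n = 3) and MYLIP 15.3 TPM ± 0.278 (SD, n = 3). ABCA1 was nearly silent at 0.235 TPM ± 0.0574 (SD, n = 3). No other neighbours in this order overlapped over the 3 libraries, although SREBF1 reached 235 TPM and INSIG1 was as low as 242 TPM. The place of SREBF1 rests on its many short transcripts, since its most abundant transcript SREBF1-201, of 4178 bases, had 41.3, 55.8 and 46.2 TPM in the GFP libraries and SREBF2-201 had 46.9, 58.7 and 58.2 TPM.

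By the order of the libraries within experiments, 5 genes of the SREBP system were lower with each form of TYRO3, and ABCA1 was higher. Whether a gene was called depended on the model (below). No member was called lower in WT in the main model or in the model with a term for each experiment. In each of the 3 experiments the GFP library was the highest of the 4 for SREBF1, SREBF2, SCAP, INSIG1 and STARD4, which is 5 of the 8 genes. Over all 15098 genes tested, GFP was highest in each experiment for 13.8%. ABCA1 was the only member with GFP lowest in each experiment, which held for 12.7% of all genes. For SREBF1, SREBF2, SCAP and INSIG1 all 3 GFP libraries lay above all 9 TYRO3 libraries in CPM, as for 5.21% of all genes, and no member lay wholly the other way, as 5.03% did. The plot of levels by experiment shows this order and how steady the GFP libraries were.

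**Figure D1:**
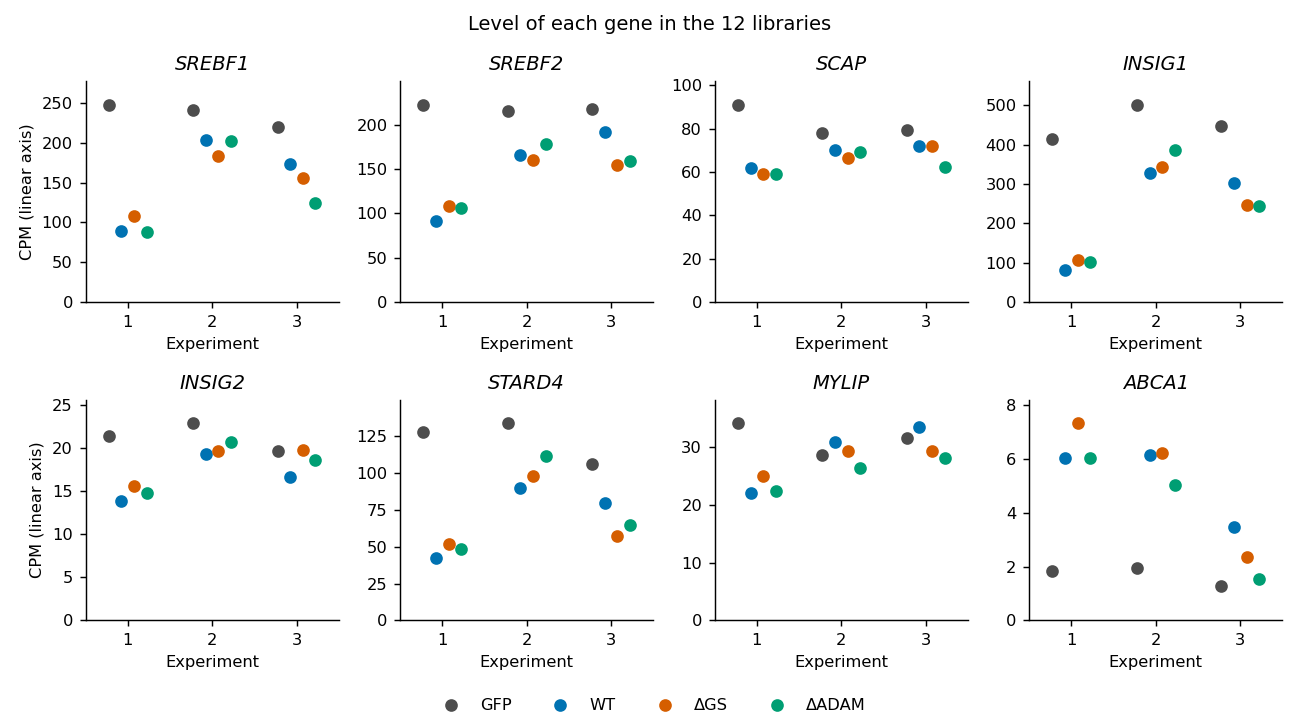
Level of each gene in CPM (linear axis, from 0) in the 12 libraries by experiment, with 1 point per library and a colour per group. SREBF2 lay between 216 and 223 CPM in GFP and between 91.1 and 192 CPM in the TYRO3 libraries, while ABCA1 lay at 1.26 to 1.94 CPM in GFP and at 1.53 to 7.33 CPM in the others.

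INSIG1, the SREBP target that holds SCAP in the endoplasmic reticulum, had the largest mean log2 ratio, in size, among the 5 SREBP system genes in each experiment. In experiment 1 it had 414 CPM in GFP, 80.0 in WT, 106 in ΔGS and 100 in ΔADAM. In experiment 2 it had 502 CPM in GFP, 328 in WT, 342 in ΔGS and 388 in ΔADAM. In experiment 3 it had 446 CPM in GFP, 302 in WT, 246 in ΔGS and 245 in ΔADAM. All 9 TYRO3 libraries were below all 3 GFP libraries, and those of experiment 1 were far below the rest. The mean log2 ratio to the GFP library of the same experiment was −2.13 in experiment 1, −0.51 in experiment 2 and −0.76 in experiment 3.

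The quasi-likelihood test of edgeR was fitted to all 15098 genes in 2 models of the 4 groups. The main model had a term for experiment 1 against the others, after the study's own batch correction, and the second had a term for each experiment (the replicate block). To be called, a gene had to differ by more than 1.5-fold with a Benjamini-Hochberg adjusted p of at most 0.05. The main model called 6 genes (0.0397%) in WT against GFP, 69 (0.457%) in ΔGS and 168 (1.11%) in ΔADAM, and 0 of the 8 members in any of the 3. At an unadjusted p under 0.05 there were 2300 (15.2%), 2895 (19.2%) and 3087 (20.4%) genes, with 7, 6 and 6 of the members among them. DESeq2 with the same terms called 4 members in WT (ABCA1, INSIG1, SREBF2 and STARD4), 5 in ΔGS (these and SREBF1) and 3 in ΔADAM (INSIG1, SREBF1 and SREBF2), beside 2.49%, 4.02% and 4.46% of all genes.

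With the replicate block, 1 of the 8 members was called in WT, 4 in ΔGS and 5 in ΔADAM. ABCA1 rose in all 3, beside 1.66% of all genes called higher in WT, 2.81% in ΔGS and 3.15% in ΔADAM. INSIG1, STARD4 and SREBF2 fell in ΔGS and ΔADAM and SREBF1 fell in ΔADAM, beside 1.88% of all genes called lower in ΔGS and 2.05% in ΔADAM. No member was called lower in WT, where 0.689% of all genes were. The 3 comparisons share the GFP libraries, so their values for a gene are not independent. The plot of fold changes shows both models side by side.

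**Figure D2:**
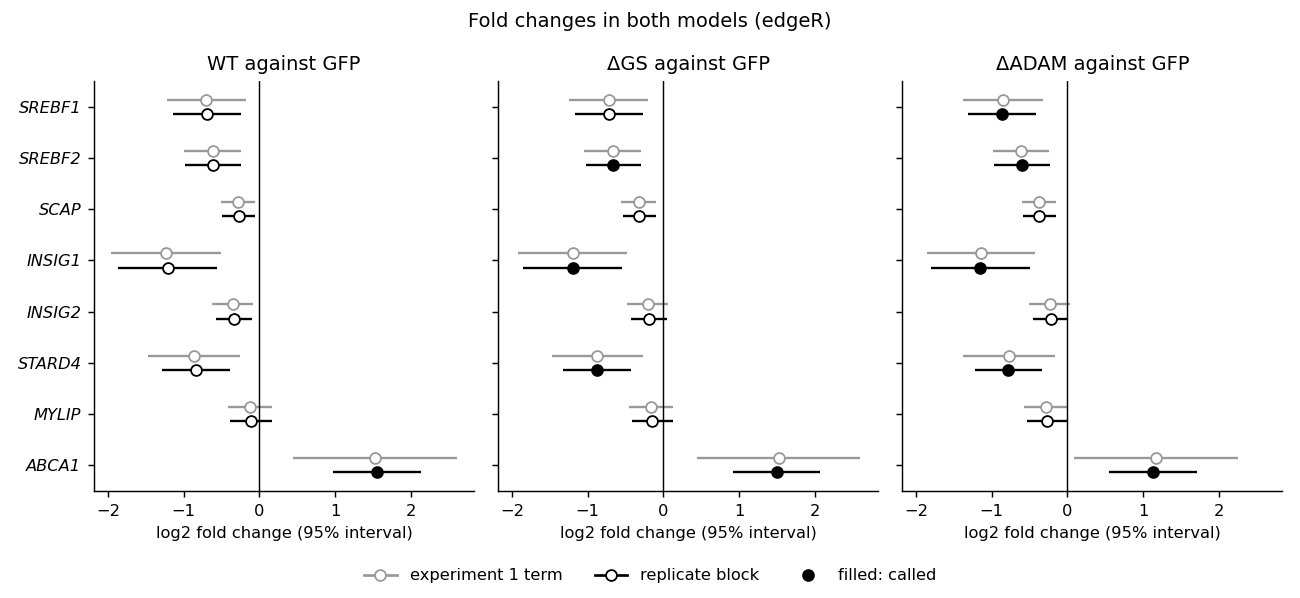
Log2 fold change against GFP with its 95% interval for the 8 genes (rows) and the 3 TYRO3 groups (panels), from edgeR with a term for experiment 1 (grey) or for each experiment (black), filled where called. The ABCA1 estimate in WT was 1.53 and 1.56 in the 2 models, with the narrower interval under the replicate block.

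INSIG1 had a log2 fold change in the main model of −1.23 ± 0.329 (SE) in WT, −1.20 ± 0.326 in ΔGS and −1.14 ± 0.327 in ΔADAM, with edgeR adjusted p of 0.134, 0.0899 and 0.0875. The adjusted p under the replicate block was 0.0513 in WT, 0.0329 in ΔGS and 0.0360 in ΔADAM. With experiments 2 and 3 alone the log2 fold change was −0.58 in WT, −0.68 in ΔGS and −0.56 in ΔADAM, and 0 of the 8 members were called by edgeR in those libraries with or without the block, with 2 members at an unadjusted p under 0.05 in each comparison (no block), beside 3.43%, 8.41% and 8.37% of all genes. Over all alternatives and the 3 comparisons the adjusted p for INSIG1 ranged from 5.84e-05 to 1.00.

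STARD4 encodes a cytosolic sterol carrier whose transcription depends on SREBP. It had 128 CPM in GFP of experiment 1 and 42.5, 51.6 and 48.5 in WT, ΔGS and ΔADAM. It had 134 CPM in GFP of experiment 2 and 89.6, 97.8 and 112 in the TYRO3 libraries, and 106 CPM in GFP of experiment 3 and 79.6, 57.1 and 64.7 in the TYRO3 libraries. GFP was highest within each experiment, although ΔADAM of experiment 2 exceeded GFP of experiment 3. The main log2 fold change was −0.86 ± 0.276 (SE) in WT, −0.87 ± 0.275 in ΔGS and −0.77 ± 0.275 in ΔADAM, with adjusted p of 0.182, 0.126 and 0.145 (edgeR). Under the replicate block the adjusted p was 0.05005 in WT, just above the threshold, 0.0260 in ΔGS and 0.0365 in ΔADAM. Its range over the alternatives was 0.00137 to 1.00.

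SREBF2 encodes the SREBP that mainly drives cholesterol synthesis and is itself an SREBP target. It had 223, 216 and 218 CPM in GFP of experiments 1 to 3, a spread of 1.03-fold. In experiment 1 it had 91.1 CPM in WT, 108 in ΔGS and 106 in ΔADAM. In experiment 2 it had 166, 160 and 178 CPM, and in experiment 3 it had 192, 155 and 159 CPM. The 9 TYRO3 libraries were all below GFP. The main log2 fold change was −0.61 ± 0.171 (SE) in WT, −0.67 ± 0.170 in ΔGS and −0.61 ± 0.170 in ΔADAM, with adjusted p of 0.144, 0.0777 and 0.0822 (edgeR), and under the replicate block it was 0.0706, 0.0357 and 0.0445. The range over the alternatives was 0.00179 to 1.00.

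SREBF1 encodes the SREBP isoforms best known for fatty acid synthesis. It had 248 CPM in GFP of experiment 1 and 89.1, 109 and 88.5 in WT, ΔGS and ΔADAM. In experiment 2 it had 241 CPM in GFP and 204, 183 and 202 in the TYRO3 libraries, and in experiment 3 it had 221 CPM in GFP and 173, 156 and 125 in the TYRO3 libraries. No TYRO3 library reached the lowest GFP library. The main log2 fold change was −0.70 ± 0.239 (SE) in WT, −0.72 ± 0.238 in ΔGS and −0.85 ± 0.239 in ΔADAM, with adjusted p of 0.205, 0.137 and 0.0843 (edgeR). Under the replicate block the adjusted p was 0.0864, 0.0537 and 0.0275, with a range over the alternatives of 0.000436 to 1.00.

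SCAP, the sterol sensor that carries SREBPs, was not called in any comparison. It had 91.0, 78.0 and 79.3 CPM in GFP and 58.9 to 71.97 CPM in the TYRO3 libraries, which did not overlap. Its main log2 fold change was −0.28 ± 0.104 (SE) in WT, −0.33 ± 0.104 in ΔGS and −0.38 ± 0.104 in ΔADAM, smaller than the fold threshold. In ΔADAM under the replicate block the edgeR adjusted p was 0.0413, and over the alternatives it ranged from 0.0215 to 1.00. INSIG2, the second anchor of SCAP, had 19.6 to 22.8 CPM in GFP and 13.8 to 20.7 CPM in the TYRO3 libraries, which overlapped. It was lower than GFP in 8 of 9 libraries, with a main log2 fold change of −0.35 ± 0.124 in WT, −0.21 ± 0.123 in ΔGS and −0.23 ± 0.123 in ΔADAM, and adjusted p of 0.218, 0.402 and 0.315.

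The plot of ratios within experiments shows a further feature that the SREBP genes shared. For SREBF1, SREBF2, SCAP, INSIG1, INSIG2, STARD4 and MYLIP, the mean log2 ratio to GFP was most negative in experiment 1. SREBF1 had −1.39 in experiment 1, −0.30 in experiment 2 and −0.56 in experiment 3. SREBF2 had −1.14, −0.36 and −0.37, and STARD4 had −1.43, −0.43 and −0.67. The level of TYRO3 was also highest in experiment 1, and the GFP library of that experiment was the shallowest. The part of either in these ratios was not tested. Among the 3 GFP libraries SREBF2 differed by 1.03-fold and STARD4 by 1.26-fold at most, with the other SREBP genes between.

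**Figure D3:**
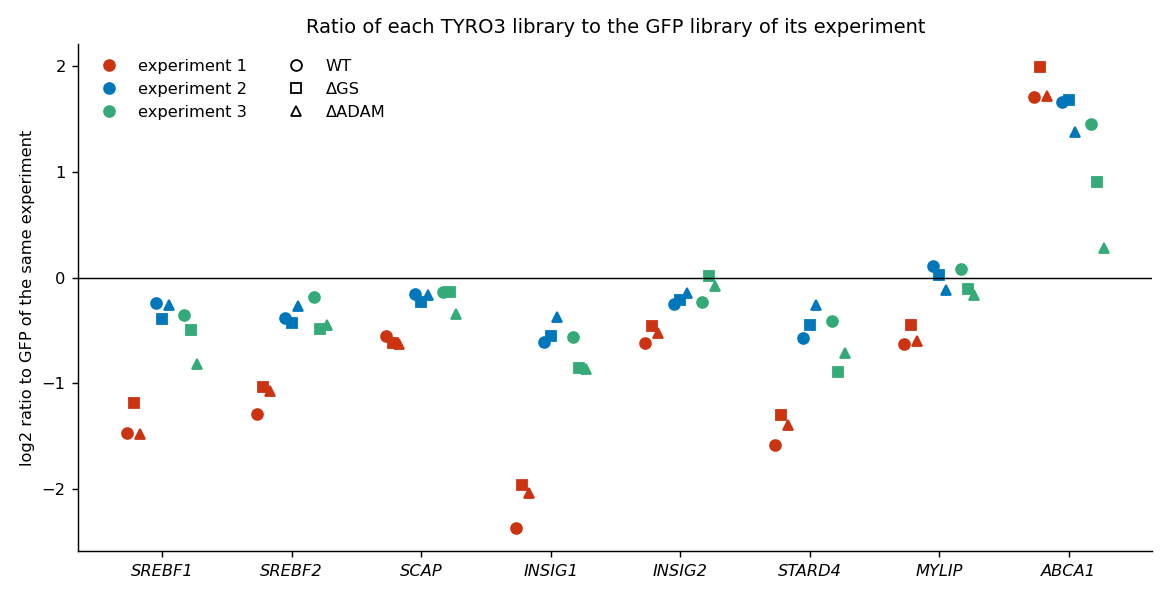
Log2 ratio of each TYRO3 library to the GFP library of its experiment (vertical axis) for the 8 genes, with a colour per experiment and a symbol per group. The 3 points of experiment 1 lie at −2.37 to −1.97 for INSIG1 and the 6 others at −0.87 to −0.37, while all 9 ABCA1 points lie above 0.

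Without the GFP library of experiment 1, the main log2 fold change of INSIG1 was −0.66 in WT, −0.60 in ΔGS and −0.56 in ΔADAM. The same omission under the replicate block left 1 member called in WT, 1 in ΔGS and 0 in ΔADAM, beside 0.966%, 1.75% and 1.88% of all genes. ABCA1 in ΔGS was the call that held in all 12 fits that each left out a library. In WT it held in 10 of 12 (lost without GFP or WT of experiment 2), and in ΔADAM in 8 of 12 (lost without GFP or ΔADAM of experiment 1 or of experiment 2). The INSIG1 call held in 5 of 12 such fits in ΔGS and 7 of 12 in ΔADAM, the STARD4 call in 7 and 6, the SREBF2 call in 5 and 4, and the SREBF1 call in ΔADAM in 9. Each of these 7 calls was lost without the GFP library of experiment 1.

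ABCA1, the transporter that loads cellular cholesterol onto apolipoproteins, lay the other way, from a very low level. In GFP it had 7, 72 and 25 counts in experiments 1 to 3, which is 1.84, 1.94 and 1.26 CPM. In experiment 1 it had 6.04 CPM in WT, 7.33 in ΔGS and 6.05 in ΔADAM. In experiment 2 it had 6.13, 6.23 and 5.03 CPM, and in experiment 3 it had 3.46, 2.36 and 1.53 CPM. It was higher than GFP of the same experiment in 9 of 9 libraries, by 1.21-fold to 3.98-fold. The exact Poisson 95% interval of the GFP value was 0.740 to 3.79 CPM in experiment 1, below the lower bound of 4.97 CPM in WT. In experiment 3 the interval was 0.818 to 1.87 CPM in GFP, 1.77 to 3.08 CPM in ΔGS and 1.11 to 2.05 CPM in ΔADAM. The interval of GFP thus overlapped that of ΔADAM widely and that of ΔGS only at the edge. Overlap of such intervals is not a test of a difference, and the differences within that experiment were not tested. These intervals cover counting error only.

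The main log2 fold change of ABCA1 was 1.53 ± 0.491 (SE) in WT, 1.53 ± 0.489 in ΔGS and 1.17 ± 0.492 in ΔADAM, with edgeR adjusted p of 0.182, 0.129 and 0.209. Under the replicate block the log2 fold change was 1.56 ± 0.264 in WT, 1.495 ± 0.263 in ΔGS and 1.13 ± 0.264 in ΔADAM, with adjusted p of 0.0138, 0.0108 and 0.0262. Without experiment 1 the estimates were 1.56 in WT, 1.41 in ΔGS and 1.02 in ΔADAM, near those with it, while those of INSIG1 were closer to 0 without it. The adjusted p over the alternatives ranged from 0.00304 to 1.00. Where at least 10 counts were required in every library, ABCA1 was not tested, because its GFP library of experiment 1 had 7.

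MYLIP, the other member grouped here as an LXR target, did not follow ABCA1. It had 34.2 CPM in GFP of experiment 1 and 22.0, 25.0 and 22.5 in WT, ΔGS and ΔADAM. In experiment 2 it had 28.7 CPM in GFP and 31.0, 29.3 and 26.5 in the TYRO3 libraries, and in experiment 3 it had 31.5 CPM in GFP and 33.5, 29.3 and 28.1 in the TYRO3 libraries. It was lower than GFP in 6 of 9 libraries and higher in 3, and the groups overlapped. The main log2 fold change was −0.12 ± 0.133 (SE) in WT, −0.16 ± 0.133 in ΔGS and −0.28 ± 0.133 in ΔADAM, with adjusted p of 0.726, 0.552 and 0.262 (edgeR). With experiments 2 and 3 alone its value in WT was above 0, at 0.11.

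The members grouped here as SREBP targets and as LXR targets were set against each other library by library. SREBF1 was in neither set, and whether LXRs act on it in these cells was not tested. It was lower than GFP in 9 of 9 libraries, unlike ABCA1. The mean log2 ratio of INSIG1, STARD4 and SREBF2 was below 0 in all 9 TYRO3 libraries, from −1.75 to −0.30 with a median of −0.68. The mean of ABCA1 and MYLIP was above 0 in all 9, from 0.05 to 0.88 with a median of 0.63. The difference of both means had a median of 1.33 over the 9 libraries and of 1.15 without experiment 1, where it ranged from 0.73 to 1.41. In experiment 1 it lay between 2.06 and 2.29. The positive LXR mean came from ABCA1, since ABCA1 exceeded MYLIP by 0.44 to 2.44 in log2 ratio. These are descriptions of means over chosen genes, with no test, and all 9 values rest on 3 GFP libraries.

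**Figure D4:**
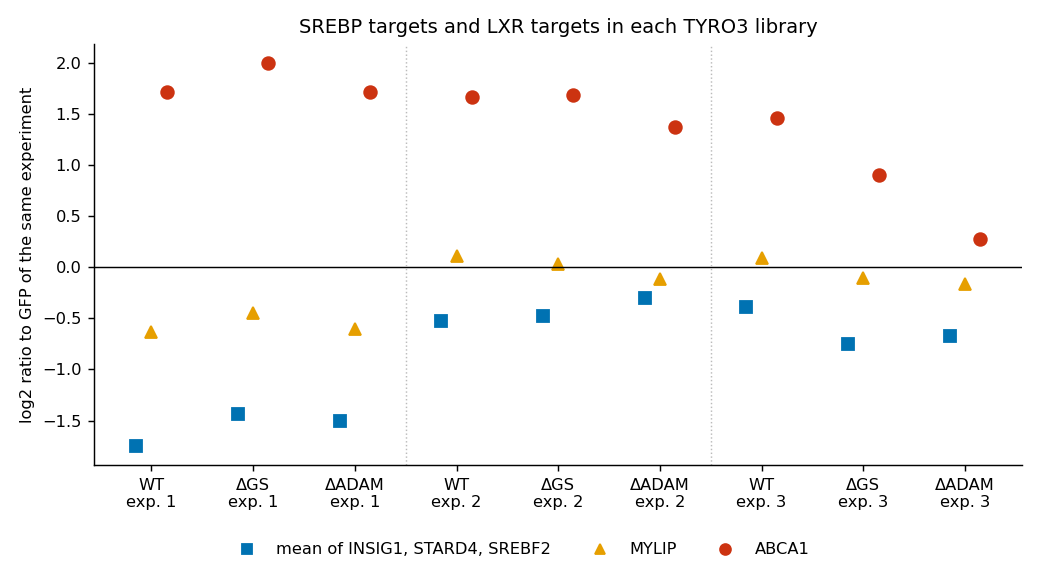
Log2 ratio to the GFP library of the same experiment for the mean of INSIG1, STARD4 and SREBF2 (squares), MYLIP (triangles) and ABCA1 (circles) in each of the 9 TYRO3 libraries, ordered by experiment. Squares lie at −1.75 to −0.30 and circles at 0.28 to 1.99, with MYLIP between −0.63 and 0.11.

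The 3 forms of TYRO3 were then compared with one another, to ask whether cleavage of the receptor bears on these genes. In WT against the mean of ΔGS and ΔADAM, 0 of the 8 members and 0 of 15098 genes (0%) were called by edgeR in either model, with 119 genes at an unadjusted p under 0.05 in the main model and 237 under the block, and DESeq2 called 1 gene and no member. In ΔGS against ΔADAM the counts were the same 0 of 8 and 0 (0%), with 119 and 216 genes at an unadjusted p under 0.05 and 1 gene, no member, by DESeq2. No member had an unadjusted p under 0.05 in either comparison. The difference of WT from the variants was −0.06 for INSIG1 with a 95% interval of −0.67 to 0.55 on the log2 scale, 0.03 for SREBF2 (−0.30 to 0.35) and −0.04 for STARD4 (−0.56 to 0.47). It was 0.18 for ABCA1 (−0.66 to 1.02), 0.09 for SREBF1 (−0.36 to 0.54), 0.07 for SCAP (−0.13 to 0.27), −0.13 for INSIG2 (−0.36 to 0.10) and 0.10 for MYLIP (−0.15 to 0.35). For SREBF2, SCAP, INSIG2 and MYLIP these intervals leave out a difference of 1.5-fold either way, and for INSIG1 and ABCA1 they do not. Those of SREBF1 and STARD4 leave it out with all 12 libraries but reach 0.77 and 0.73 without WT of experiment 1.

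For ΔGS against ΔADAM the differences lay between −0.10 (STARD4, interval −0.69 to 0.50) and 0.36 (ABCA1, −0.61 to 1.32). In all 3 experiments ABCA1 was lower in ΔADAM than in ΔGS, at 6.05 against 7.33 CPM, 5.03 against 6.23 CPM and 1.53 against 2.36 CPM. The edgeR adjusted p was 1.00 in both models, and the share of all genes with this order was not counted. TYRO3 had the same order, at 3284 against 3694 CPM, 1215 against 1436 CPM and 1181 against 1648 CPM. The part of the TYRO3 level in the ABCA1 values was not tested.

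The other genes of the pathway were read from 6 lists, chosen like the members with earlier results of these data known. In the list of SREBP targets of cholesterol synthesis and uptake, 21 of 22 genes passed the filter on low counts. In the main model 0 of the 21 were called in WT, where 20 had an unadjusted p under 0.05, beside 15.2% of all genes. That model called 4 lower in ΔGS (ACAT2, FDPS, HMGCS1 and SC5D) and 11 lower in ΔADAM, and none higher. Over all genes it called 0.457% and 1.11% in either direction. The replicate block called 18, 19 and 19 of the 21 lower, beside 0.689%, 1.88% and 2.05% of all genes. The list's median log2 fold change in the main model was −0.97 in WT, −0.92 in ΔGS and −0.90 in ΔADAM, beside medians of −0.00323, 0.0100 and −0.00154 over all genes. FDPS, which makes farnesyl diphosphate, had 300.2 CPM ± 37.0 (SD, n = 3) in GFP and 172 ± 44.9 in WT, with a log2 fold change of −0.83, −0.73 and −0.77 in WT, ΔGS and ΔADAM and adjusted p of 0.0589, 0.0471 and 0.0334 (edgeR). SC5D, a late enzyme of cholesterol synthesis, had −0.71, −0.67 and −0.63 with adjusted p of 0.0682, 0.0471 and 0.0441, and TMEM97 had −0.65, −0.57 and −0.63 with 0.0795, 0.0524 and 0.0371. With experiments 2 and 3 alone the median of the list was −0.57, −0.57 and −0.55, and edgeR called 0 of the 21. In each comparison 19 had an unadjusted p under 0.05, beside 3.43%, 8.41% and 8.37% of all genes.

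All 11 SREBP targets of fatty acid synthesis were tested. The main model called 0 in WT, ACLY lower in ΔGS, and ACLY and ACSS2 lower in ΔADAM, and the replicate block called 3, 6 and 5 lower, beside 0.689%, 1.88% and 2.05% of all genes. ACLY, which supplies cytosolic acetyl-CoA, was lower than GFP in 9 of 9 libraries by −0.96 to −0.43 in log2 ratio. ACSS2, which makes acetyl-CoA from acetate, was lower in 9 of 9 by −1.51 to −0.74, and SCD, the stearoyl-CoA desaturase, by −2.07 to −0.34. The list's median was −0.55 in WT, −0.74 in ΔGS and −0.57 in ΔADAM. With experiments 2 and 3 alone it was −0.33, −0.75 and −0.48, and edgeR called 0 of the 11. At an unadjusted p under 0.05 there were 3, 7 and 3, beside 3.43%, 8.41% and 8.37% of all genes.

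Of the 9 tested LXR targets other than ABCA1 and MYLIP, edgeR called 0 higher in any comparison of either model, and 3, 2 and 3 had an unadjusted p under 0.05 in the main model, beside 15.2%, 19.2% and 20.4% of all genes. The list had a median of −0.22 in WT, −0.15 in ΔGS and −0.23 in ΔADAM. ABCG5, a subunit of the sterol exporter ABCG5/ABCG8, fell in ΔADAM in the main model with a log2 fold change of −1.25 ± 0.211 (SE) and an edgeR adjusted p of 0.0351. It had 3.42 CPM ± 0.502 (SD, n = 3) in GFP and 1.42 CPM ± 0.409 (SD, n = 3) in ΔADAM. The replicate block called ABCG5 lower in all 3 comparisons, and LPCAT3, a phospholipid acyltransferase, lower in ΔGS and ΔADAM. LPCAT3 had 29.5 CPM ± 1.77 (SD, n = 3) in GFP and 16.5 CPM ± 3.94 (SD, n = 3) in ΔGS. SMPDL3A had log2 fold changes of −0.33, −0.28 and −0.39 and was not called. With experiments 2 and 3 alone the list's median was −0.12, −0.03 and −0.16, and edgeR called 0 of the 9. At an unadjusted p under 0.05 there were 1, 2 and 2, beside 3.43%, 8.41% and 8.37% of all genes.

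Of the 10 genes that process or degrade SREBPs and INSIGs, RNF145, a ubiquitin ligase that acts on SCAP, fell in ΔADAM in the main model with a log2 fold change of −0.59 ± 0.112 (SE) and an edgeR adjusted p of 0.0441. Under the replicate block its log2 fold change was −0.58, below the fold threshold, and it was not called. C12orf49, which helps SREBP cleavage, had −0.30, −0.41 and −0.33, and FBXW7, which marks nuclear SREBPs for degradation, had 0.24, 0.16 and 0.17, and neither was called. None of the 6 LXR receptor and oxysterol genes tested was called by edgeR in either model, and 0 had an unadjusted p under 0.05 in the main model. Of these, NR1H3, which encodes LXRα, had log2 fold changes of −0.13, −0.26 and −0.30, and RXRB, a partner of LXRs, 0.09, 0.26 and 0.25. None of the 15 genes of uptake, transport and storage was called either, with 4 at an unadjusted p under 0.05 in each comparison, beside the 15.2%, 19.2% and 20.4% of all genes. SCARB1, the high-density lipoprotein receptor, had log2 fold changes of −0.47, −0.46 and −0.54. GRAMD1B, which moves cholesterol from the plasma membrane to the endoplasmic reticulum, had 0.53, 0.50 and 0.55, and SOAT1, which esterifies cholesterol, had −0.29, −0.35 and −0.40.

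Counted by order alone, GFP was the highest of the 4 libraries in each experiment for 20 of the 21 cholesterol targets and 9 of the 11 fatty acid targets. The same held for 3 of 9 LXR targets, 3 of 10 processing genes, 0 of 6 LXR receptor and oxysterol genes and 2 of 15 transport genes, against the 13.8% of all genes. ABCG1 and CH25H were in the files but too low to be tested.

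**Figure D5:**
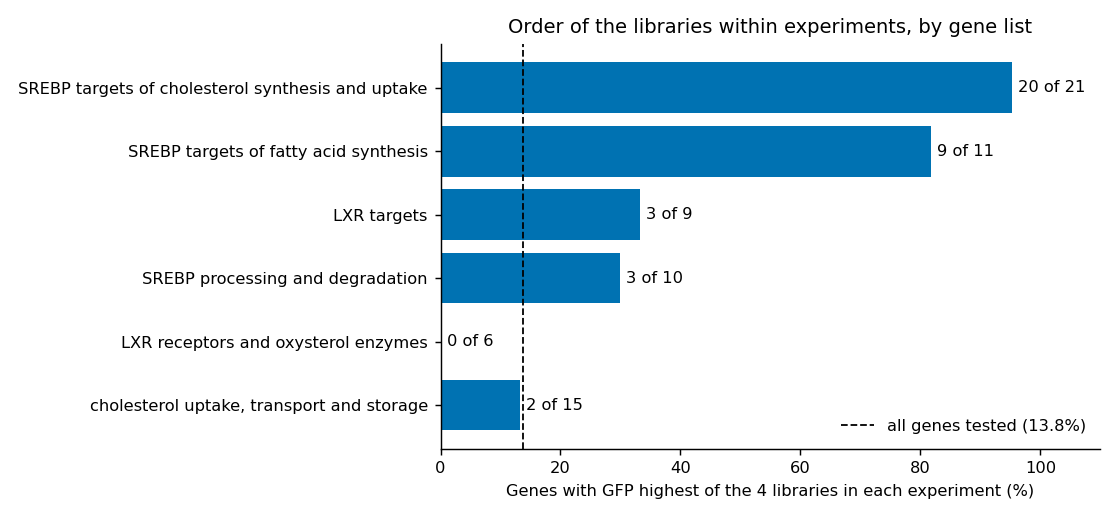
Share of the tested genes of each list (bars, in percent from 0) whose GFP library was the highest of the 4 in each of the 3 experiments, with the counts beside the bars and the share among all 15098 genes as a dashed line at 13.8%. The 2 lists of SREBP targets stand at 20 of 21 and 9 of 11.

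The genes whose levels varied most like each member over the 12 libraries were found after the mean of each experiment was subtracted from log2 CPM. The search covered 9952 genes with a mean of at least 10 CPM, and the points share the contrast of GFP with TYRO3 and the libraries' depth. INSIG1 was most like SQLE (r = 0.993), CYP51A1 (r = 0.992) and SREBF2 (r = 0.991), SQLE and CYP51A1 being enzymes of cholesterol synthesis. SREBF2 was most like CYP51A1 (r = 0.992), INSIG1 and SCD (r = 0.991 each). CLCN6 (r = 0.995) and LPIN1 (r = 0.994) were among the 3 genes most like STARD4. SREBF1 was most like KYAT3 (r = 0.987) and SCAP most like ST3GAL5 (r = 0.989). INSIG2 was most like ANAPC15 (r = 0.97), MYLIP like NEMP2 (r = 0.95) and ABCA1 like TRIM14 (r = 0.96). Among the members, r with INSIG1 was 0.98 for STARD4, 0.97 for SREBF1, 0.93 for SCAP and −0.78 for ABCA1. Between MYLIP and ABCA1 r was −0.43.

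The transcripts behind these sums were read from the TPM values. ABCA1-202, a protein-coding transcript of 10408 bases, made up 99.5% of the ABCA1 TPM on average, and MYLIP-202 94.9% of that of MYLIP. INSIG1-201 gave 69.05%, SREBF2-201 68.6% and STARD4-201 51.8%, and SREBF2-204, a retained intron of 796 bases, gave 18.5%. The share of INSIG1-201 was 69.4% ± 5.15 (SD, n = 3) in GFP, 69.2% ± 4.17 in WT, 70.1% ± 5.61 in ΔGS and 67.6% ± 4.42 in ΔADAM, so the groups differed by less than the spread within them. SREBF1 was split over 23 transcripts, of which SREBF1-201 gave 26.2%. In SCAP the long transcripts SCAP-201 and SCAP-216 gave 30.6% and 22.7%. SCAP-201 had 43.3% ± 2.27 (SD, n = 3) in ΔADAM and 18.6% ± 11.3 in ΔGS, and SCAP-216 had 11.8% ± 2.30 and 30.9% ± 6.94. These transcripts share most of their sequence and the estimates can move reads between them, so the split is uncertain, and it was not tested.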

How the data were processed

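The deposited files held, per the labels and file headers, the estimated counts and TPM values that the authors obtained for each transcript of Ensembl 96 (GRCh38) with kallisto 0.46.0, after FastQC 0.11.9, PRINSEQ and Trimmomatic 0.33. The batch correction and normalization of the study are not in them. Of 188753 transcripts, 169797 matched GENCODE 29 by identifier without version. Their estimated counts were summed to 35579 genes and rounded. EdgeR 4.0.16 (R 4.3.3) was run with TMM normalization and filterByExpr (minimum count 10, minimum total 15), and p-values were adjusted within each comparison. CPM used TMM library sizes.

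The experiment numbers of the labels mark a shared experiment and so pair the libraries. Deviations from the group means correlated at 0.0384 to 0.529 in 18 pairs of the same experiment and at −0.373 to 0.0533 in 36 pairs of different experiments. The GFP library of experiment 1 was the least paired, at 0.0734 with WT, 0.0824 with ΔGS and 0.0384 with ΔADAM of that experiment. Outside that library the lowest value within an experiment was 0.145, between GFP and WT of experiment 2. The totals per library ran from 4008293 to 38184838, which limits low genes such as ABCA1.

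The members and lists were chosen with earlier results of these data known. Named genes were the members, TYRO3, the 3 genes of each list with the smallest p over the GFP comparisons and the 3 genes most like each member (pseudocount 0.1 CPM), and some of these are not reported here. Procedures were tested on simulated data. Alternatives tried were edgeR with DESeq2 size factors, DESeq2 1.42.0, limma 3.58.1 on log2(TPM + 1), other filters, no batch term, the replicate block, experiments 2 and 3 alone, protein-coding transcripts, no fold threshold and each library left out. Leaving out libraries under the block was added after seeing the data. Python 3.11.15, pandas 2.3.3 and matplotlib 3.10.9 made the tables and figures.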

Additional observations from a re-analysis of the deposited data

How the results depend on the processing

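Calls of members depended on the model, and their direction against GFP did not, apart from MYLIP. The number of genes called in WT, ΔGS and ΔADAM against GFP was 6, 69 and 168 in the main model. It was 355, 708 and 784 with the replicate block, 376, 607 and 673 with DESeq2, 562, 765 and 879 without a filter on low counts, 2, 9 and 7 with limma on log2(TPM + 1), and 3, 4 and 5 without a batch term. Experiments 2 and 3 alone gave 1, 1 and 1, and with the replicate block 47 and 189 in WT and ΔGS. A minimum of 10 counts in every library gave 107 in ΔGS, and protein-coding transcripts only gave 19 in ΔGS and 51 in ΔADAM. In WT against the variants DESeq2 called 1 gene and the fit without a filter 6, and in ΔGS against ΔADAM 1 and 5. The number of members called was 1, 4 and 5 with the replicate block, 4, 5 and 3 with DESeq2 and 5, 5 and 5 without a filter. The numbers of all genes called in these fits, given above, were out of 15098 tested with the block and with DESeq2. Without a filter they were out of 25269. The cause of these differences was not tested.

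With each library left out in turn the genes called ranged from 1 to 20 in WT, 1 to 137 in ΔGS and 1 to 449 in ΔADAM, and with the replicate block from 79 to 606, 269 to 777 and 198 to 870. ΔGS against ΔADAM ranged from 0 to 1 in both. The members called with the replicate block ranged from 0 to 4 in WT, 1 to 5 in ΔGS and 0 to 5 in ΔADAM, and in the main model from 0 to 1 in ΔADAM, where leaving out ΔADAM of experiment 2 gave SREBF1. Beside the GFP library of experiment 1, the INSIG1 and SREBF2 calls in ΔGS were lost without any ΔGS library, ΔADAM of experiment 1 or 3, or WT of experiment 2. The INSIG1 call in ΔADAM was lost without ΔADAM of experiment 1 or 3 or WT or ΔGS of experiment 2, and the SREBF1 call without ΔADAM of experiment 1 or 3. The SREBF2 call in ΔADAM was lost without any ΔADAM library, ΔGS of experiment 1 or 2, WT of experiment 2 or GFP of experiment 3. The STARD4 call was lost in ΔGS without any ΔGS library or GFP of experiment 3, and in ΔADAM without ΔADAM of experiment 1 or 3, ΔGS of experiment 1, WT of experiment 2 or GFP of experiment 3.

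The log2 fold change of MYLIP in WT against GFP was 0.11 with experiments 2 and 3 alone and 0.11 with the replicate block in these. With a library left out it ranged from −0.23 to 0.047 in WT and −0.27 to 0.012 in ΔGS, and with the replicate block from −0.21 to 0.047 and −0.25 to 0.012. Small differences among the TYRO3 groups changed sign. In WT against the variants INSIG1 was 0.011 with limma, 0.045 with experiments 2 and 3 alone and 0.072 with the replicate block in these, and STARD4 was 0.071, 0.033 and 0.085. INSIG2 was 0.13 with protein-coding transcripts. In ΔGS against ΔADAM, SCAP was −0.027 with limma and −0.061 with protein-coding transcripts. INSIG2 was −0.028 with limma and −0.0027 with experiments 2 and 3 alone, and −0.00028 with the replicate block in these. With each library left out, WT against the variants ranged from −0.064 to 0.27 for SREBF1, −0.12 to 0.20 for SREBF2, −0.21 to 0.19 for INSIG1, −0.17 to 0.12 for STARD4 and −0.11 to 0.39 for ABCA1. ΔGS against ΔADAM ranged from −0.0044 to 0.39 for SREBF1, −0.12 to 0.018 for SREBF2, −0.0025 to 0.11 for SCAP, −0.23 to 0.22 for INSIG1, −0.029 to 0.093 for INSIG2, −0.33 to 0.20 for STARD4 and −0.015 to 0.75 for ABCA1. The median gap between the mean of ABCA1 and MYLIP and that of the SREBP targets was 1.33, and 1.15 without experiment 1. The 9 other LXR targets tested were not above GFP as a list. Their medians in the main model were −0.22, −0.15 and −0.23 in WT, ΔGS and ΔADAM. The medians of the cholesterol targets were lower still, at −0.97, −0.92 and −0.90. Of the other values, 1027 log2 fold changes of members kept their sign and call.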
